A study of Rattus norvegicus with 18 samples.

Results

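The genes described here are 9 markers of microglia, the resident macrophages of the brain: P2ry12, Itgam, Cx3cr1, Csf1r, Aif1, Tmem119, C1qa, C1qb and Trem2. They were taken by their exact symbol in the platform annotation, with the feature of highest mean where a gene had several, and all 9 were found, with 1 feature each, among 22093 genes. The tissue was nucleus accumbens from male Sprague-Dawley rats, hybridised 1 rat to 1 Affymetrix whole-transcript array, in a study of methamphetamine self-administration punished by footshock. The 18 rats form 3 groups of 6, named control, shock resistant and shock sensitive, and were picked for arrays by RNA quality. Shock-resistant rats in this design go on taking methamphetamine when it is punished, and shock-sensitive rats cut down. The labels state neither the treatment of the control rats nor the age, dose or time of death of any rat.

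Microglia survey brain tissue with motile processes, clear debris and remodel synapses. Their survival depends on CSF1R, their process movement towards released ATP and ADP on P2RY12, and their exchange with neurons on CX3CR1, the receptor of neuronal fractalkine. The complement protein C1q, made in the brain largely by microglia, tags synapses and debris for uptake through receptors such as the integrin that contains CD11b, the product of Itgam. TREM2 senses lipids and passes its signal on through TYROBP.

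Values are log2 expression, so that a difference of 1 is a doubling. The median feature of an array read 5.43 to 5.56. Of the 9 genes, 7 had a mean at or above 6.37, the median of 1153 negative control features. Aif1 and Trem2 did not, and differences in such genes may be understated. In 60.9% of all genes at least 1 pair of arrays held exactly the same value, and Aif1 read 5.55 in 9 of 18 arrays. In these tissue samples fewer microglia and less RNA per microglial cell cannot be told apart. All 17 measured medium spiny neuron markers, which define this tissue, lay above that median. A pair of arrays, control replicate 1 and shock-sensitive replicate 4, were lowest in the mean of these markers, at 11.08 and 10.96 against 11.86 to 13.06 elsewhere. In shock-resistant replicate 4 the choroid plexus gene Ttr read 16.58, against 5.67 to 8.52 in the other arrays.

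None of the 9 microglia genes differed between groups at an adjusted p under 0.05 in limma, a linear model over all genes with shared variance information, with Benjamini-Hochberg adjustment over 22093 genes. The count was 0 of 9 for shock-resistant rats against controls, where 0.0181% of all genes passed, 0 of 9 for shock-sensitive rats against controls (0% of all genes) and 0 of 9 for shock-resistant against shock-sensitive rats (0%). By the F test for any difference among the 3 groups 0 of 9 passed (0.00905% of all genes), and Itgam alone had an unadjusted p under 0.05 (0.0444, adjusted p = 0.577), where 8.61% of all genes did. At an unadjusted p under 0.05 the counts were 0 of 9, 0 of 9 and 2 of 9, against 11.4%, 6.09% and 6.4% of all genes. In every comparison the groups overlapped in all 9 genes, while 0.688%, 0.38% and 0.213% of all genes had groups that did not overlap.

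**Figure D1:**
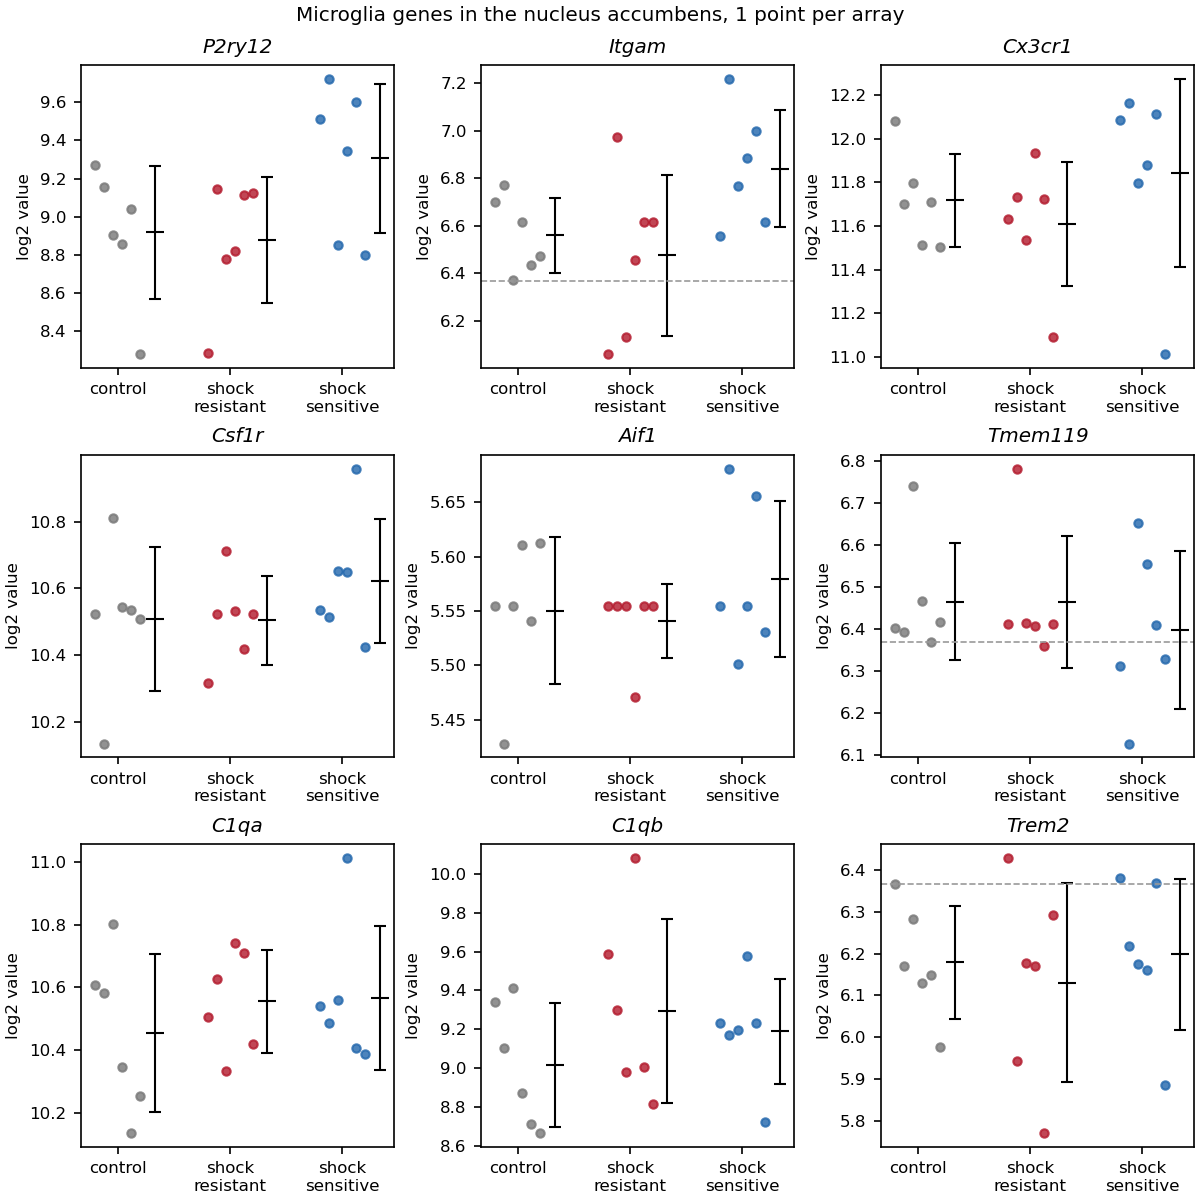
Log2 values of the 9 microglia genes (vertical axes, each with its own range) in the 3 groups, 1 point per array, with the group mean and SD (n = 6) in black. The dashed line, where it falls within a panel, marks the negative control median of 6.37; the 3 groups overlap in every panel.

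Shock-sensitive rats had the highest mean of P2ry12, the ADP receptor that draws microglial processes to injury. It read 8.80 at the lowest, 9.43 at the median and 9.72 at the highest in shock-sensitive rats, 8.28, 8.97 and 9.27 in controls, and 8.29, 8.97 and 9.15 in shock-resistant rats. Thus 4 of 6 shock-sensitive arrays lay above every control, and the other two lay within the control range. The means were 9.31 ± 0.39, 8.92 ± 0.35 and 8.88 ± 0.33 in the same order (SD, n = 6 each). Shock-sensitive rats stood 1.31-fold above controls (log2 difference 0.39 ± 0.19, SE, 95% interval −0.015 to 0.79, limma adjusted p = 0.807). They stood 1.34-fold above shock-resistant rats, whose log2 difference from them was −0.43 (95% interval −0.83 to −0.025, limma adjusted p = 0.769). All 6 shock-resistant arrays lay below the shock-sensitive median, and 2 lay below every shock-sensitive array. Controls and shock-resistant rats, neighbours in the order of means, differed by −0.04 (95% interval −0.44 to 0.36).

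Itgam, which encodes the CD11b chain of complement receptor 3, followed the same order of means at lower readings. It read 6.56, 6.83 and 7.22 (lowest, median, highest) in shock-sensitive rats, 6.37, 6.54 and 6.77 in controls, and 6.06, 6.54 and 6.97 in shock-resistant rats. All 6 shock-sensitive arrays exceeded the control median and 3 exceeded every control, while shock-resistant rats spread over a range that enclosed that of the controls. Shock-resistant replicates 1 and 3, at 6.06 and 6.13, lay below the negative control median, and the other 16 arrays lay at or above it. The means were 6.84 ± 0.25, 6.56 ± 0.16 and 6.48 ± 0.34 (SD, n = 6 each). The log2 difference was 0.28 ± 0.14 for shock-sensitive rats against controls (SE, 95% interval −0.014 to 0.57, limma adjusted p = 0.807). It was −0.37 ± 0.14 for shock-resistant against shock-sensitive rats (SE, 95% interval −0.66 to −0.071, limma adjusted p = 0.753). In shock-resistant against control rats it was −0.085, with a 95% interval of −0.38 to 0.21.

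P2ry12 and Itgam were the 2 genes counted at an unadjusted p in the comparison of shock-resistant with shock-sensitive rats, both lower in shock-resistant rats, where 3.77% of all genes were. Without the pair of arrays lowest in spiny neuron markers the differences were −0.42 and −0.36, and Itgam alone was counted. The count of 2 fell to 0 when replicate 1 or 3 of the shock-resistant or replicate 2 of the shock-sensitive rats was left out, and was 3 without shock-sensitive replicate 6, where Cx3cr1 joined. It was 1, Itgam alone, without shock-resistant replicate 4 or shock-sensitive replicate 1, 4 or 5. In shock-sensitive rats against controls the count of 0 became 3 without shock-sensitive replicate 6 (P2ry12, Itgam and Cx3cr1). Leaving out the second control or the first shock-resistant rat made it 2. Leaving out the first control, the second shock-resistant rat or shock-sensitive replicate 1 or 3 made it 1.

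Cx3cr1, the fractalkine receptor, varied as much within groups as between them. In shock-sensitive rats it read 11.01 at the lowest, 11.98 at the median and 12.16 at the highest. In controls these were 11.50, 11.71 and 12.08, and in shock-resistant rats 11.09, 11.68 and 11.93. Shock-sensitive replicate 6 held the lowest value of all 18 arrays, while 3 of the other shock-sensitive arrays exceeded every control. The log2 difference was 0.13 ± 0.17 in shock-sensitive and −0.11 ± 0.17 in shock-resistant rats against controls (SE, limma adjusted p = 0.947 and 0.83). Between shock-resistant and shock-sensitive rats it was −0.23 ± 0.17 (SE, limma adjusted p = 0.849). Without shock-sensitive replicate 6 the first of these was 0.29 and the last −0.40.

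Csf1r, the receptor of the growth factors CSF1 and IL-34, read 10.42, 10.59 and 10.96 (lowest, median, highest) in shock-sensitive rats. It read 10.14, 10.53 and 10.81 in controls and 10.32, 10.52 and 10.71 in shock-resistant rats. The shock-resistant range lay inside that of the controls, and 1 of 6 shock-sensitive arrays exceeded every control. Means differed from controls by 0.11 ± 0.099 in shock-sensitive and −0.0055 ± 0.099 in shock-resistant rats (SE). The 95% intervals were −0.096 to 0.32 and −0.21 to 0.20, and that of shock-resistant against shock-sensitive rats was −0.33 to 0.091.

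Trem2, the lipid-sensing receptor of phagocytic microglia, lay below the negative control median in 15 of 18 arrays. It averaged 6.20 ± 0.18 in shock-sensitive rats, 6.18 ± 0.13 in controls and 6.13 ± 0.24 in shock-resistant rats (SD, n = 6 each). Both its lowest value, 5.77, and its highest, 6.43, were in shock-resistant rats. The log2 difference from controls was 0.019 in shock-sensitive rats and −0.049 in shock-resistant rats, and 95% intervals in all 3 comparisons lay within −0.29 and 0.24.

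Aif1 and Tmem119, whose proteins are common tissue stains for microglia, gave signals below or near background. Aif1, which encodes the actin-binding protein IBA1, lay below the negative control median in all 18 arrays and ranged from 5.43 to 5.68. In shock-resistant rats 5 of 6 arrays held the same value of 5.55. Its differences from controls were −0.0096 in shock-resistant and 0.029 in shock-sensitive rats, and the first group differed from the second by −0.039. Tmem119, a membrane protein that marks microglia among brain macrophages, read 6.13 to 6.78, with 14 of 18 arrays at or above the negative control median. It differed by 0.00014, −0.067 and 0.067 in the same order, and its mean was lowest in shock-sensitive rats (6.40 ± 0.19, against 6.46 ± 0.14 in controls and 6.46 ± 0.16 in shock-resistant rats; SD, n = 6 each). For shock-resistant rats against controls it was −0.0077 after quantile normalization and −0.038 after median centring.

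C1qb, the B chain of the complement protein C1q, was the member with the highest mean difference from controls in shock-resistant rats. It read 8.82, 9.15 and 10.08 (lowest, median, highest) there, 8.66, 8.99 and 9.41 in controls, and 8.72, 9.21 and 9.58 in shock-sensitive rats. The shock-resistant group spread furthest, and 2 of its 6 arrays exceeded every control. The difference was 0.28 ± 0.20 (SE, 95% interval −0.13 to 0.69, limma adjusted p = 0.587). Its highest value was in shock-resistant replicate 4, the array with the raised Ttr, and without that array the difference was 0.12. In shock-sensitive rats it was 0.17 ± 0.20 against controls (adjusted p = 0.938, limma).

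C1qa, the A chain, averaged 10.57 ± 0.23 in shock-sensitive rats, 10.56 ± 0.16 in shock-resistant rats and 10.45 ± 0.25 in controls (SD, n = 6 each). It read 10.39, 10.51 and 11.01 in the first group, 10.33, 10.57 and 10.74 in the second and 10.14, 10.46 and 10.80 in controls (lowest, median, highest). Only shock-sensitive replicate 4, lowest of all arrays in spiny neuron markers, exceeded every control, and without it the difference of 0.11 between shock-sensitive and control rats was 0.022. Against controls the 95% intervals were −0.14 to 0.36 in shock-sensitive and −0.15 to 0.35 in shock-resistant rats.

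**Figure D2:**
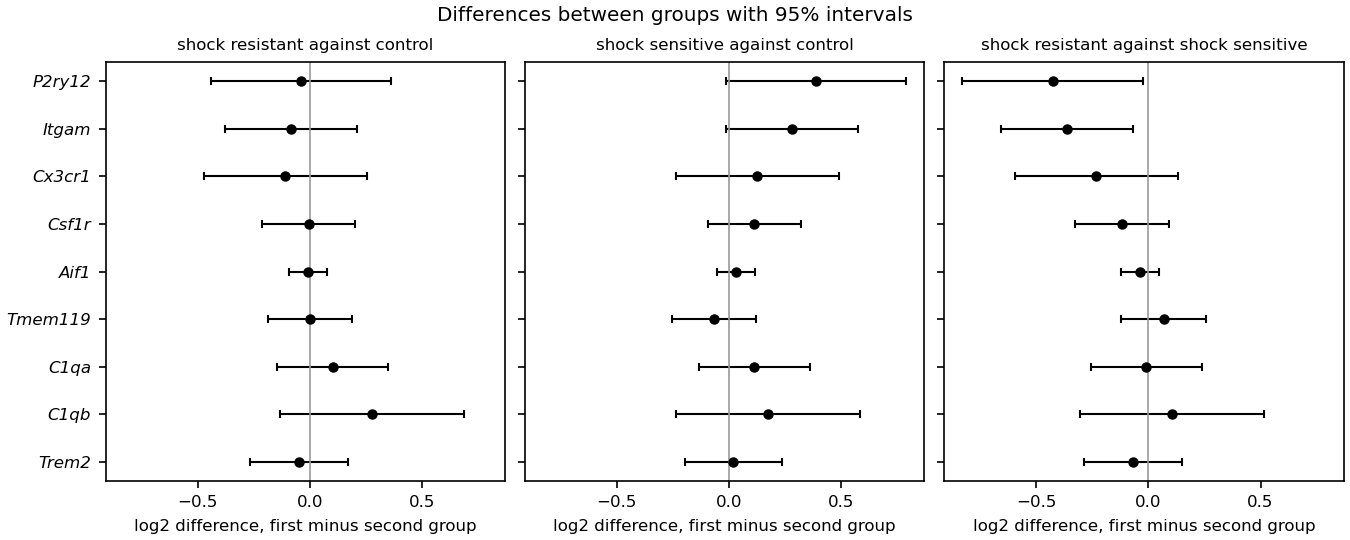
Log2 differences of the 9 microglia genes in 3 comparisons (horizontal axis, first minus second group), with 95% intervals from limma over 18 arrays. The intervals of P2ry12 and Itgam between shock-resistant and shock-sensitive rats lie below 0; all the others cross 0.

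Counted by direction, 3 of 9 genes had a higher mean in shock-resistant rats than in controls (54.4% of all genes), 8 of 9 in shock-sensitive rats than in controls (56.9%), and 2 of 9 in shock-resistant than in shock-sensitive rats (48.4%). After median centring these were 2, 7 and 2. Median differences over the 9 were −0.0096, 0.11 and −0.068, beside 0.010, 0.013 and −0.0026 over all genes. The 3 comparisons share arrays with each other, so these counts do not support one another. Tmem119 was the exception among the 8 of 9. Among all genes at an unadjusted p under 0.05, 1595 were higher and 928 lower in shock-resistant rats than in controls, which median centring made 730 and 1717. In shock-sensitive rats against controls 1008 were higher and 337 lower (542 and 546 after centring), and in shock-resistant against shock-sensitive rats 582 and 833 (410 and 897).

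The 9 genes varied among rats to different degrees. The residual SD within groups was 0.36 for C1qb and for P2ry12, above that of 95.1% and 94.7% of genes at or above the negative control median, and 0.32 for Cx3cr1 (92.5%). It was 0.26 for Itgam, 0.22 for C1qa, 0.18 for Csf1r and 0.16 for Tmem119, beside a median of 0.14 over those genes. From the lowest to the highest array P2ry12 spanned 2.71-fold, C1qb 2.67-fold and Aif1 1.19-fold.

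Over single rats, 2 of the 36 pairs of microglia genes were correlated after adjustment. P2ry12 and Itgam went together (Pearson r = 0.75, permutation p = 0.00047, adjusted over 36 pairs to 0.0119; Spearman rho = 0.72, permutation p = 0.00102, adjusted p = 0.0184, n = 18). C1qa and C1qb did so too (r = 0.73, permutation p = 0.00066, adjusted p = 0.0119; rho = 0.78, permutation p = 0.00025, adjusted p = 0.009). Without the 2 arrays farthest from the median of the first gene r was 0.71 and 0.69. Over deviations from the group means, as a description, it was 0.66 and 0.72. No p is given for deviations, since the permutations did not allow for the group means taken out. P2ry12 and Cx3cr1 passed by rank alone (rho = 0.69, permutation p adjusted to 0.0239; r = 0.56, adjusted p = 0.144). Cx3cr1 and C1qb did not pass over the values (r = 0.56, permutation p adjusted to 0.144), and their r over deviations from the group means was 0.66. Across the 36 pairs r ranged from −0.29 to 0.75 with a median of 0.23, and 27 were above 0.

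**Figure D3:**
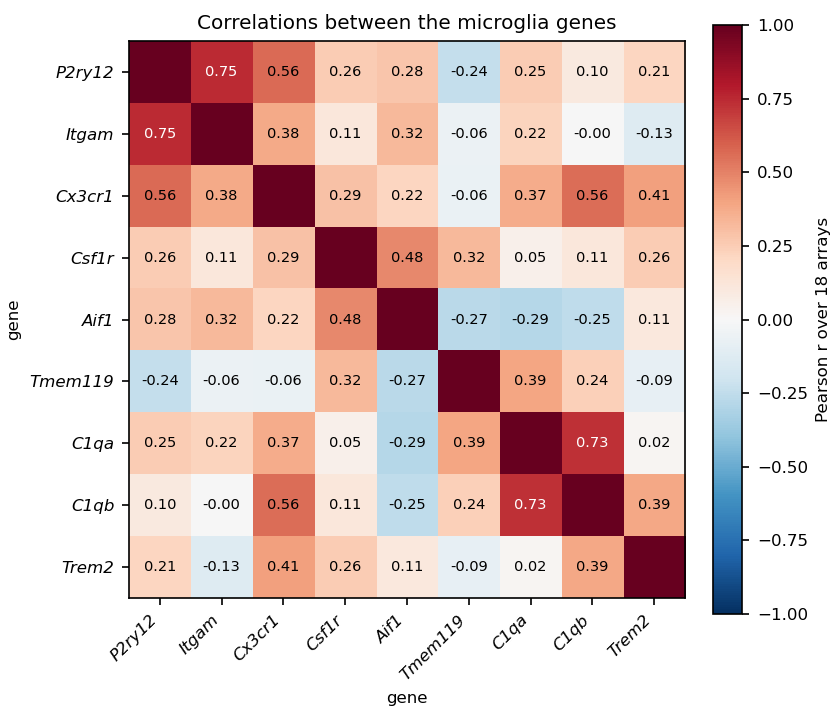
Pearson r over 18 arrays for each pair of the 9 microglia genes (both axes list the genes; the colour bar gives r). The highest values are 0.75 for P2ry12 with Itgam and 0.73 for C1qa with C1qb; Aif1, below background on every array, has no r above 0.48.

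**Figure D4:**
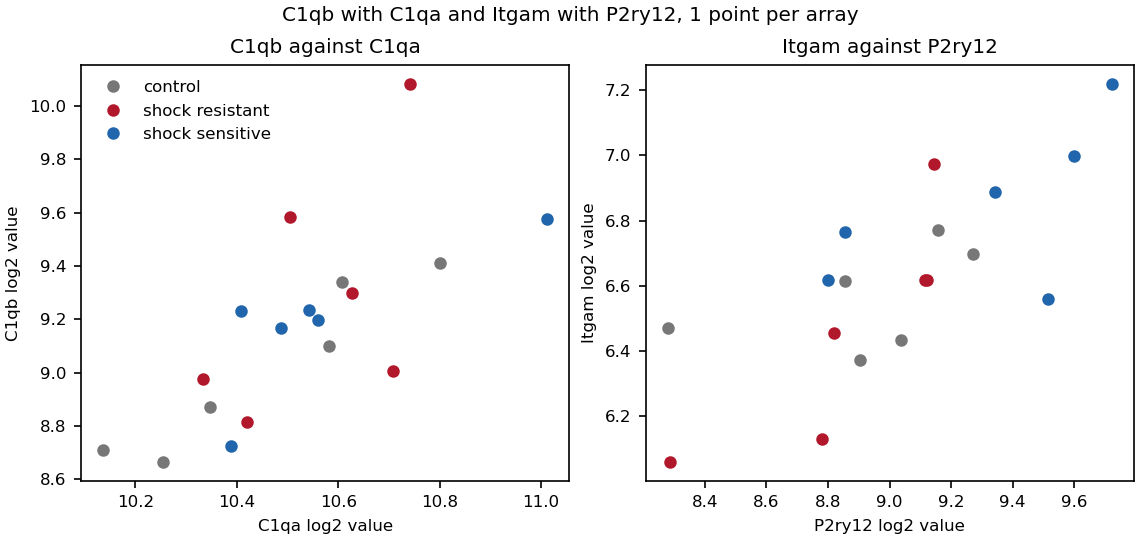
C1qb against C1qa and Itgam against P2ry12, log2 values, 1 point per array, coloured by group. In both panels the 3 groups overlap along the trend, and the highest Itgam value, 7.22, belongs to a shock-sensitive rat.

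The genes of the 3 chains of C1q are neighbours on rat chromosome 5, in the order C1qb, C1qc and C1qa between Ephb2 and Epha8. C1qc averaged 6.06 ± 0.14 in controls (SD, n = 6 each), 6.13 ± 0.18 where rats were shock sensitive and 6.19 ± 0.11 where they were shock resistant, all below the negative control median. Its r with C1qa was 0.55 and with C1qb 0.48 (permutation p = 0.019 and 0.0432, adjusted over 7 pairs of a gene with its partner to 0.133 and 0.151; rho = 0.38 and 0.54, permutation p adjusted to 0.404 and 0.162). Leaving out the 2 farthest arrays gave r of 0.36 and 0.61. Because C1qa and C1qb varied together, the 250 bases before their gene starts are shown (RefSeq, GRCr8, 5′ to 3′ on the gene's strand). Capitals mark GAGGAA, a form of the site of the myeloid transcription factor PU.1, or TTCCTC, the same letters on the other strand. Other forms of the site were not searched. C1qa lies at chr5:154419934-154420183 (minus strand) and C1qb at chr5:154407828-154408077 (minus strand).
C1qa: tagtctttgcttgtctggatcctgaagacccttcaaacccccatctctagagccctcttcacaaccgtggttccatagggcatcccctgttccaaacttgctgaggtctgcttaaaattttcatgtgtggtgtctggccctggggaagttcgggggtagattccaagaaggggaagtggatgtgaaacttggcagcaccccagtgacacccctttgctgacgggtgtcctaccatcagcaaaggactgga
C1qb: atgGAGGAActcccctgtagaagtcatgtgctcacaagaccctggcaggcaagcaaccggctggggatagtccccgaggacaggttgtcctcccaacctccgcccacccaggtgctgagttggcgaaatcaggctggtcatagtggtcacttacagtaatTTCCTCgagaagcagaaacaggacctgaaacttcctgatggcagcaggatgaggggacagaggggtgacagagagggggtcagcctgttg
The letters occurred on both strands in the window of C1qb and not in that of C1qa. RefSeq windows were at hand for 6 of the 9 microglia genes, and 4 of these held the letters (Itgam, Csf1r, C1qb and Trem2), as did 23.3% of 33469 windows of that length. The windows of Itgam, Csf1r, Cx3cr1 and Trem2 precede 1 annotated start but reach into the gene as annotated from its outermost start, by 96, 227, 250 and 18 bases, and are not shown. A match of letters is a description and not a bound site. Spi1, which encodes PU.1, averaged 4.73 ± 0.07 in controls (SD, n = 6 each), with shock-sensitive rats at 4.81 ± 0.14 and shock-resistant rats at 4.81 ± 0.049, below the negative control median.

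The ligands and partners of the receptors did not pass in any comparison at an adjusted p under 0.05 (0 of 12 measured). Cx3cl1, the neuronal ligand of CX3CR1, averaged 14.86 ± 0.46 in controls (SD, n = 6 each), with shock-resistant rats at 15.02 ± 0.27 and shock-sensitive rats at 14.79 ± 0.40. The CSF1R ligand Il34 stood 0.15 ± 0.067 above controls in shock-resistant rats (SE, limma adjusted p = 0.404). The other ligand, Csf1, differed by −0.20 ± 0.087 between shock-resistant and shock-sensitive rats (SE, limma adjusted p = 0.767). At an unadjusted p under 0.05 each was 1 of 12 partners, beside 11.4% and 6.4% of all genes. Tyrobp, the adaptor of TREM2, had a mean of 5.78, below the negative control median, as did Trem2. This limits what their differences and their correlation can show. Tyrobp differed from controls by 0.12 and 0.11 in shock-resistant and shock-sensitive rats. Itgb2, the partner chain of CD11b, differed by 0.015 and −0.00094. Over the arrays, none of the 5 receptor pairs (Trem2 with Tyrobp, Itgam with Itgb2, Csf1r with Csf1 and with Il34, Cx3cr1 with Cx3cl1) was correlated after adjustment (r = −0.24 to 0.41, permutation p adjusted over the 7 pairs to 0.218 to 0.822; rho = −0.14 to 0.25, adjusted to 0.663 to 0.907).

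Other genes of microglia and of their activated states gave 0 calls at an adjusted p under 0.05 in every list and comparison. Of 22 other microglia genes, 13 had a higher mean in shock-resistant rats than in controls (54.4% of all genes did). In shock-sensitive rats 17 were higher than in controls (56.9%), and 5 were higher in shock-resistant than in shock-sensitive rats (48.4%). Median differences were 0.019, 0.044 and −0.056. At an unadjusted p under 0.05 the list held 1 of its 22 genes in shock-sensitive rats against controls, beside 6.09% of all genes. This was Mertk, a phagocytic receptor, lower in shock-sensitive rats (−0.14, limma adjusted p = 0.786). Of 7 transcription factors of microglia 5, 5 and 4 were higher in the 3 comparisons, beside 54.4%, 56.9% and 48.4% of all genes. At an unadjusted p under 0.05 there were 0 in each. Sall1, which keeps microglial identity, was the 1 of 7 at or above the negative control median. Against most of its list it was 0.092 lower in shock-resistant rats than in controls (limma adjusted p = 0.44). Runx1, another regulator, was 0.058 higher in shock-sensitive rats than in controls (limma adjusted p = 0.814) at levels below that median. Of 18 genes raised in phagocytic or disease-associated microglia 10, 16 and 9 were higher in the 3 comparisons in the same order. The shares of all genes were 54.4%, 56.9% and 48.4%, and the median differences of the list 0.063, 0.037 and −0.012. At an unadjusted p under 0.05 the list held 0 genes, and its 2 smallest p-values belonged to Itgax, an integrin chain, and Ccl4, a chemokine, both below background. Their log2 differences in shock-resistant rats against controls were 0.076 and 0.095 (limma adjusted p = 0.445 and 0.466).

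Among 18 inflammatory genes 3 had a mean at or above the negative control median, and medians were 0.039, 0.024 and 0.0032. In the same 3 comparisons 13, 13 and 10 of the 18 were higher, beside 54.4%, 56.9% and 48.4% of all genes. At an unadjusted p under 0.05 there was 1 of 18 in each, beside 11.4%, 6.09% and 6.4% of all genes. The last 2 were Tnf, 0.19 higher in shock-sensitive rats than in controls, and Il1a, 0.21 lower in shock-resistant than in shock-sensitive rats. Their limma adjusted p was 0.731 and 0.753, and both cytokines lay below background. Of 11 other complement genes, 8 had a higher mean in shock-resistant rats than in controls (54.4% of all genes did). Among these C4a, a C4 gene, stood 0.16 above controls (limma adjusted p = 0.442). Against that direction, the C5a receptor C5ar1 stood 0.20 below them (limma adjusted p = 0.365, below background). It was the 1 of 11 at an unadjusted p under 0.05 there, beside 11.4% of all genes. Of 9 antigen presentation genes 9 had a higher mean in shock-resistant rats than in controls (54.4% of all genes did) and 3 an unadjusted p under 0.05 (11.4% of all genes), with 8 of the 9 below background. Among them were the class II genes RT1-Ba and RT1-Da (0.14 and 0.22, limma adjusted p = 0.364 and 0.392), both below background. The direction of most calls over all genes in this comparison turned under median centring, as given above. All 10 border macrophage markers, which include Ms4a7 and F13a1, lay below the negative control median. So did all 11 of monocytes and neutrophils, which include Mpo and Csf3r, and all 9 of T and B cells. In the same order 10 of 10, 10 of 11 and 9 of 9 had a higher mean in shock-resistant rats than in controls. That direction was therefore not particular to the antigen presentation genes. At an unadjusted p under 0.05 the counts in that comparison were 0, 3 and 2, beside 11.4% of all genes. The border macrophage mean ranged over arrays from 5.26 to 5.34 in controls, 5.29 to 5.40 in shock-resistant and 5.25 to 5.43 in shock-sensitive rats. That of monocytes and neutrophils ranged from 4.49 to 4.66, 4.59 to 4.68 and 4.51 to 4.67.

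**Figure D5:**
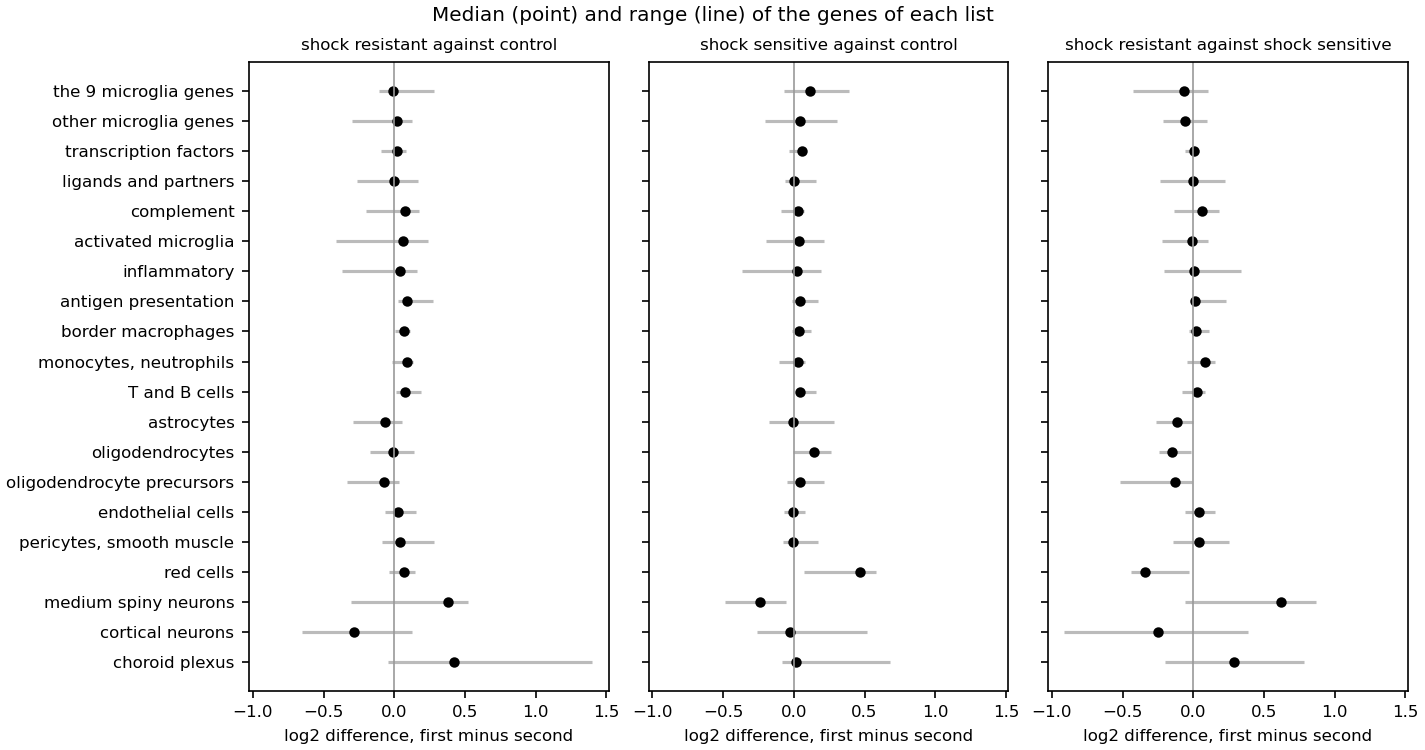
Median (point) and range (line) of log2 differences over the measured genes of each fixed list, in 3 comparisons. The 9 microglia genes lie at −0.0096, 0.11 and −0.068. In the comparison on the right the astrocyte, oligodendrocyte, oligodendrocyte precursor and red cell lists lie wholly below 0. The spiny neuron list there has its median above 0 and a range that crosses it.

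Markers of other cell types also had means that differed in one direction. Those of myelinating oligodendrocytes were higher in shock-sensitive rats than in controls in 10 of 11 genes (median 0.14), where 56.9% of all genes were. They were lower in shock-resistant than in shock-sensitive rats in 11 of 11 (−0.15), where 48.4% of all genes were higher. In either comparison 0 of these genes had an unadjusted p under 0.05, beside 6.09% and 6.4% of all genes. Their mean ranged over arrays from 11.28 to 11.93 in controls, 11.36 to 11.81 in shock-resistant and 11.37 to 12.06 in shock-sensitive rats. In a test chosen after the values were seen, this mean correlated with P2ry12 (Pearson r = 0.68, permutation p = 0.00157, adjusted over 9 genes to 0.0141; rho = 0.69, adjusted p = 0.0163, n = 18) and, by r, with Itgam (r = 0.59, permutation p adjusted to 0.0472; rho = 0.55, adjusted p = 0.0566). Without the 2 farthest arrays r was 0.60 and 0.54. P2ry12 and Itgam were the 2 of 9 microglia genes that passed by r. The others had r from 0.05 (Tmem119) to 0.46 (Cx3cr1), with permutation p adjusted to 0.171 or more by r and 0.0538 or more by rho. With the oligodendrocyte mean as a covariate, P2ry12 differed between shock-resistant and shock-sensitive rats by −0.28 and so did Itgam (limma adjusted p = 0.927 for both), and Itgam alone kept an unadjusted p under 0.05. Over all alternatives the adjusted p of this comparison lay between 0.564 and 0.999 for P2ry12 and between 0.418 and 0.999 for Itgam.

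Spiny neuron markers ran the other way, higher in shock-resistant than in shock-sensitive rats in 16 of 17 genes (median 0.62), 4 of them at an unadjusted p under 0.05 (6.4% of all genes). Their mean ranged from 11.08 to 12.75 in controls, 12.31 to 13.06 in shock-resistant and 10.96 to 12.64 in shock-sensitive rats. Correlations of the 9 microglia genes with their mean were between −0.38 and −0.02, and 0 of 9 passed by r or by rho (permutation p adjusted to 0.613 or more and 0.891 or more, n = 18). With that mean as a covariate P2ry12 and Itgam differed between shock-resistant and shock-sensitive rats by −0.35 and −0.31, and neither had an unadjusted p under 0.05 in limma. Astrocyte markers were lower in shock-resistant than in shock-sensitive rats in 12 of 12 genes (median −0.12, 4 at an unadjusted p under 0.05), and red cell genes in 5 of 5 (−0.35, 1 at that p). So were markers of oligodendrocyte precursors in 8 of 8 (−0.13, 2 at that p) and of cortical neurons in 10 of 11 (−0.25, 4 at that p). Of all genes, 48.4% were higher in shock-resistant than in shock-sensitive rats, and 3.77% were lower at an unadjusted p under 0.05. The astrocyte mean ranged from 11.18 to 11.51 in controls, 11.11 to 11.42 in shock-resistant and 11.16 to 11.56 in shock-sensitive rats, and the red cell mean from 7.62 to 8.38, 7.63 to 8.22 and 7.98 to 8.77. In the same order the precursor mean ranged from 8.98 to 9.39, 8.86 to 9.24 and 9.05 to 9.49, and the cortical neuron mean from 7.11 to 8.43, 7.16 to 7.47 and 7.24 to 8.08. The part of the astrocyte, red cell, precursor and cortical neuron lists in the microglia values was not tested. For spiny neuron and oligodendrocyte markers only the correlations and covariate fits given above were run.

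Outside the list, the genes whose values over the 18 arrays were most like the mean of the 9 were Slc29a3, a lysosomal nucleoside transporter (Pearson r = 0.82, Spearman rho = 0.80), and Sirt2, a deacetylase abundant in oligodendrocytes (0.82 and 0.83). Next came Nkx6-2, an oligodendrocyte transcription factor (0.81 and 0.90), Ugt8, an enzyme of myelin lipid synthesis (0.80 and 0.74), and Paqr6, a membrane progestin receptor (0.80 and 0.75). They were ranked among 11566 genes at or above the negative control median and chosen for this likeness, so no p is given. The likeness to the mean did not hold for each member. Slc29a3 had r from 0.03 with Tmem119 to 0.71 with C1qb, and Sirt2 from 0.01 to 0.69 with the same genes. Of the genes in that ranking, oligodendrocyte markers had a median r of 0.69 with the microglia mean and other microglia genes one of 0.42, beside 0.12 over all. Of the 100 most alike genes 6 were from the oligodendrocyte list, of 11 ranked, and 4 from the list of other microglia genes, of 16 ranked.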

How the data were processed

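Per the labels' protocols, total RNA was extracted with Qiagen chemistry and 100 ng per array was labelled with the Affymetrix WT Plus kit. The submitters' processing notes name Affymetrix Expression Console as the tool behind the deposited log2 values. The sources used here do not give the summarisation or normalization, and the log2 scale was taken from the range of the values. Platform symbols were updated by gene number to RefSeq names (GRCr8, names alone; 22077 of 23446 features with 1 symbol). Features with several symbols (505) or none (44891) and 1738 control features were left out. The feature of highest mean stood for each of 22093 genes, with no filter on low values.

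Limma 3.58.1 in R 4.3.3 fitted group alone to all 18 arrays, tested on simulated data. Arrays give no read depth, and 6 per group limit the precision. No batch or scan date was used, since neither labels nor values table give one. Correlations used 100000 permutations, two-sided. Alternatives were quantile normalization, median centring, the mean of a gene's features, a filter at the negative control median, trend and robust variance, array weights, a replicate block, 2 groups alone, marker covariates and each array left out. The oligodendrocyte covariate and the joint removal of the arrays lowest in spiny neuron markers were chosen after seeing the data. The genes and lists were chosen with earlier results of these data known. Named beside the 9 genes were their direct partners, the 2 list genes of smallest p and the 5 genes most alike. The other tests and figures were made in Python 3.11.15 (scipy 1.17.1, numpy 2.4.6; figures with matplotlib 3.10.9, tables with pandas 2.3.3).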

Additional observations from a re-analysis of the deposited data

Results flagged for a closer look

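Of 27 sets of 6 arrays (9 genes in 3 groups), 5 had an end value separated from the other arrays by more than Dixon's 95% critical share of the range. Chance flags about 1 in 20 such sets. Cx3cr1 read 11.01 in shock-sensitive replicate 6, with the nearest array of the group at 11.80. Tmem119 read 6.74 in control replicate 3 (nearest 6.47) and 6.78 in shock-resistant replicate 2 (nearest 6.41). C1qa read 11.01 in shock-sensitive replicate 4 (nearest 10.56), the array lowest in spiny neuron markers. Aif1 read 5.47 in shock-resistant replicate 4, where the other arrays of the group all held 5.55, below background.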

How the results depend on the processing

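The count of microglia genes past an adjusted p under 0.05 was 0 in every comparison and under every alternative run, and the smallest adjusted p of any of them was 0.418. Of all genes, 4 passed in shock-resistant rats against controls. There were 0 after quantile normalization, with genes at or above the negative control median or with the 2 groups alone, 2 with the oligodendrocyte covariate, 9 with array weights and 0 to 7 with 1 array left out. In shock-sensitive rats against controls 0 to 1 passed with 1 array left out, and in shock-resistant against shock-sensitive rats 0 to 1, and 1 after median centring. At an unadjusted p under 0.05, the count of 0 in shock-sensitive rats against controls was 1 after quantile normalization and with 2 groups alone, 2 with array weights, and 0 to 3 with 1 array left out. The count of 2 between shock-resistant and shock-sensitive rats was 1 with array weights, without the arrays lowest in spiny neuron markers and with the oligodendrocyte covariate, 0 with the spiny neuron covariate, and 0 to 3 with 1 array left out. The labels do not say whether equal replicate numbers pair the rats. Deviations of same-numbered arrays correlated at −0.31 to 0.29, which cannot settle whether they do. The fit with the replicate number as a block gave 2 genes past the adjusted p in shock-resistant rats against controls. It gave 2 microglia genes (P2ry12 and Itgam) at an unadjusted p in shock-sensitive rats against controls. Between shock-resistant and shock-sensitive rats its unadjusted limma p was 0.0035 for Itgam and 0.029 for P2ry12 (adjusted p = 0.672 and 0.764). Without the block these unadjusted p-values were 0.018 and 0.039. Means near 0 changed sign, and for these the cause was not tested. In shock-resistant rats against controls Csf1r was 0.0079 after quantile normalization and 0.016 with the spiny neuron covariate. Tmem119 was −0.0077 after quantile normalization, −0.038 after median centring and −0.012 without the arrays lowest in spiny neuron markers. P2ry12 was 0.094 with array weights, 0.0079 with the spiny neuron covariate and 0.031 without those arrays. In shock-sensitive rats against controls Trem2 was −0.0052 after median centring and −0.021 with the oligodendrocyte covariate. In shock-resistant against shock-sensitive rats C1qa was 0.046 with array weights, 0.064 with the spiny neuron covariate, 0.079 without the arrays lowest in those markers and 0.042 with the oligodendrocyte covariate. With 1 array left out the ranges that crossed 0 were, in shock-resistant rats against controls, −0.17 to 0.079 for P2ry12, −0.080 to 0.055 for Csf1r, −0.034 to 0.0044 for Aif1, −0.063 to 0.056 for Tmem119 and −0.11 to 0.023 for Trem2. That of Trem2 in shock-sensitive rats against controls was −0.021 to 0.082. In shock-resistant against shock-sensitive rats they were −0.047 to 0.079 for C1qa, −0.052 to 0.20 for C1qb and −0.13 to 0.0038 for Trem2. The filter at the negative control median gives no value for Aif1 and Trem2, whose signal near background limits what their differences can show.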
